A study of Mus musculus with 30 samples.

Results

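Btg1, Btg2, Btg3, Tob1 and Tob2 are the mouse genes of the BTG and TOB family of antiproliferative proteins that had exon reads in sorted blood stem and progenitor cells. They were taken by symbol from the count tables and are 5 of 46113 genes. RNA-seq was run on 30 libraries, each from 100 sorted bone marrow cells. The mice were C57BL/6, 8 to 10 weeks old. Haematopoietic stem cells (HSCs) carried CD150 and EPCR and lacked CD48 and lineage markers, and haematopoietic progenitor cells (HPCs) were sorted in the same way but carried CD48. The labels form 3 experiments. In the first, HSCs of untreated mice (n = 4) were set beside HSCs taken 6 days (n = 4) or 10 days (n = 6) after 5-fluorouracil (5-FU), an antimetabolite that kills dividing cells. Its dose is not given in the sources used here. In the second, HSCs were either uncultured (n = 4) or kept in culture for 1 day (n = 4), the cultured cells having come from untreated mice. In the third, CD48- HSCs (n = 4) and CD48+ HPCs (n = 4) were both taken 10 days after 5-FU. No transgene, knockout or other allele is named for any group. The labels do not say whether the libraries of a group came from separate mice, so every p-value below measures the spread between these libraries, which may be technical.

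BTG and TOB proteins share a conserved domain that binds the CNOT7 and CNOT8 deadenylases of the CCR4-NOT complex, which shortens the poly(A) tails of mRNAs before they decay. They are known as brakes on cell division: forced expression slows entry into S phase in many cells, and BTG1 and BTG2 help keep lymphocytes quiescent. BTG2 is a classical early response gene and a p53 target, BTG1 a FOXO target in several cell types, and the TOB proteins also bind poly(A)-binding protein.

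Promoter sequences are shown for the 3 genes whose windows held the cAMP response element core TGACG. This motif was picked from those searched with the changes of Btg1 and Btg2 below already known. Its presence is thus a description, and a link to the changes was not tested. The sequences are from RefSeq on the GRCm38.p6 build, run from 250 bases before to 50 bases after the annotated start and have these cores on either strand in capitals. Btg1 lies at chr10:96616751-96617050 on the plus strand, Btg2 at chr1:134079106-134079405 on the minus strand and Tob1 at chr11:94211204-94211503 on the plus strand.
Btg1: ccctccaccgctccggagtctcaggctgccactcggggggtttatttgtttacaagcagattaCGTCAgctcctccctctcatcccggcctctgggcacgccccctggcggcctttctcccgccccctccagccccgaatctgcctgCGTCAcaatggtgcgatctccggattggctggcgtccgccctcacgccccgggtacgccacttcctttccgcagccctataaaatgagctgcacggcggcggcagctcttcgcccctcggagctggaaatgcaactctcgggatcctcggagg
Btg2: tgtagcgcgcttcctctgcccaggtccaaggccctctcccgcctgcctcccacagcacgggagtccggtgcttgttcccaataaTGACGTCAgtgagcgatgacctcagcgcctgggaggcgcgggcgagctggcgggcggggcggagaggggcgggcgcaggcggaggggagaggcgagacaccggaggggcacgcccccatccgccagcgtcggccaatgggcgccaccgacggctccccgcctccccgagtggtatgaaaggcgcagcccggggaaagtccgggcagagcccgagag
Tob1: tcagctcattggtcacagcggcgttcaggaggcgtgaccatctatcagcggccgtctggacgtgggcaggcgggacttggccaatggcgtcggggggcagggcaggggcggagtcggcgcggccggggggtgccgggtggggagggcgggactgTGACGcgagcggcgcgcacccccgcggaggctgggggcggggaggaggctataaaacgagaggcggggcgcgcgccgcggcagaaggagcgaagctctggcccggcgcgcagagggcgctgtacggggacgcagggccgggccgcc
The Btg1 window held 2 separate cores, whose first bases lie 187 and 103 bases before the start. In the Btg2 window 2 cores on opposite strands overlap and read TGACGTCA together, from 166 bases before the start. This stretch reads the same on both strands, so it is 1 site counted on each strand. The Tob1 window held 1, at 96 bases before the start. None was found in the Tob2 window or in the 2 windows of Btg3, and 20.8% of 32851 RefSeq promoter windows of the same length held at least 1. The FOXO motif GTAAACA was found once in the Btg1 window and in no other member (3.65% of all windows), and the TATA box TATAAA once each in Btg1 and Tob1 (13.6%). GC boxes (GGGCGG) were found in 5 of the 6 member windows (35.7% of all windows) and the NF-Y motif CCAAT also in 5 of 6 (37.4%). No member window held the AP-1 motif TGAGTCA, the E box CACGTG, the CArG box or the p53 site motif (5.20, 7.15, 1.63 and 8.36% of all windows). All motifs were searched on both strands, and a match is a stretch of letters, not a shown binding site.

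The deposited tables place Btg1 on chromosome 10 from 96617001 to 96622813 (mm10, 2 exons), Btg2 on chromosome 1 from 134074865 to 134079155 (2 exons), Tob1 on chromosome 11 from 94211454 to 94215495 (2 exons), Tob2 on chromosome 15 from 81848270 to 81858326 (2 exons) and Btg3 on chromosome 16 from 78359860 to 78377181 (6 exons). The coding sequences are related without being near copies: Btg1 and Btg2 had the same base at 68.7% of 470 aligned positions and Tob1 and Tob2 at 71.0% of 982, and the exon reads of these 4 genes were all counted as unique. Btg3 was different. Of its 2704 exon reads over the 30 libraries only 21 (0.777%) were unique, while 99.75% of its intron reads were. The processed pseudogene Gm7334 on chromosome 17 (50698688 to 50699443) repeats the whole 756-base Btg3 coding sequence, so the exon value of Btg3 is uncertain. That limit holds for every exon level, exon change, exon-to-intron ratio and correlation of Btg3 below, also where it is not repeated. Btg4, which is known for its role in oocytes, had 0 exon reads in all 30 libraries.

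The libraries held 5.21 to 12.2 M exon reads, and introns took 60.6 to 70.8% of all reads on genes. The summed level of 8 HSC markers, among them Procr, Slamf1 and Hlf, was 4600 to 5407 CPM (exon reads scaled to a common library depth) in untreated, 2529 to 2644 in day-6 and 1751 to 2115 in CD48+ libraries, and none of the 8 was at 0 in any of the 30 libraries. Cd48 mRNA was at 3.07 ± 1.79 CPM in CD48- HSCs and 51.5 ± 4.74 in CD48+ HPCs (SD, n = 4 each). Lymphocytes are known to be rich in BTG1 mRNA. Of 9 lymphoid markers with a summed level of 8.43 to 59.8 CPM, Trac was at 0 in all 30 libraries, Cd3e in 29 and Cd3g in 29, and Cd79b was present in all. In all, 9 libraries had a high summed level of markers of granulocytes, macrophages, erythroid, megakaryocyte or stromal cells (above 100 CPM and above 3 times the group median). Values without them are given where a call of the 5 genes changes. In such bulk libraries fewer cells with an mRNA and less of it per cell cannot be told apart.

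All 5 genes were detected in every library. CPM here are exon reads scaled to depth and by TMM over all 30 libraries. Among the groups, Btg2 ranged widest, with means 18.6 times apart, then Btg1 (4.37 times), Tob1 (2.53 times), Btg3 (1.55 times) and Tob2 (1.54 times). Btg1 was highest in untreated HSCs (202 ± 27.2 CPM), then uncultured (185 ± 63.4), CD48- HSCs (177 ± 41.0), day-10 HSCs (160.0 ± 16.8, n = 6) and CD48+ HPCs (133 ± 13.0). It was lower, without overlap, in day-6 HSCs (63.7 ± 13.3) and lowest, again without overlap, in cultured HSCs (46.2 ± 2.84; SD, n = 4 unless given). Btg2 followed the same course: the means of 5 groups lay between 163 ± 67.2 CPM in untreated HSCs and 72.8 ± 19.2 in CD48+ HPCs and their neighbours overlapped, and the last 2 groups were far below, at 9.79 ± 5.12 on day 6 and 8.75 ± 2.76 in culture. Tob1 stood alone at the top in CD48- HSCs of the third experiment, at 50.7 ± 4.36 CPM, without overlap with the uncultured HSCs next in order (37.3 ± 6.44). From there down to cultured HSCs (20.1 ± 7.12) every pair of neighbours in the Tob1 order overlapped. Tob2 was the steadiest abundant member, from 144 ± 21.5 CPM in uncultured to 93.1 ± 8.29 in day-6 HSCs. The uncertain exon reads of Btg3 ran the other way, highest in culture (15.6 ± 0.670) and lowest in CD48+ HPCs (10.1 ± 1.44). In neither gene did neighbours in the order separate. The intron reads of Btg3, nearly all unique, did not run that way. Their CPM were 32.2 ± 5.81 in untreated, 26.5 ± 5.82 in day-6, 26.5 ± 4.93 in uncultured and 23.2 ± 4.45 in cultured HSCs. Groups of different experiments are set side by side here as a description.

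**Figure D1:**
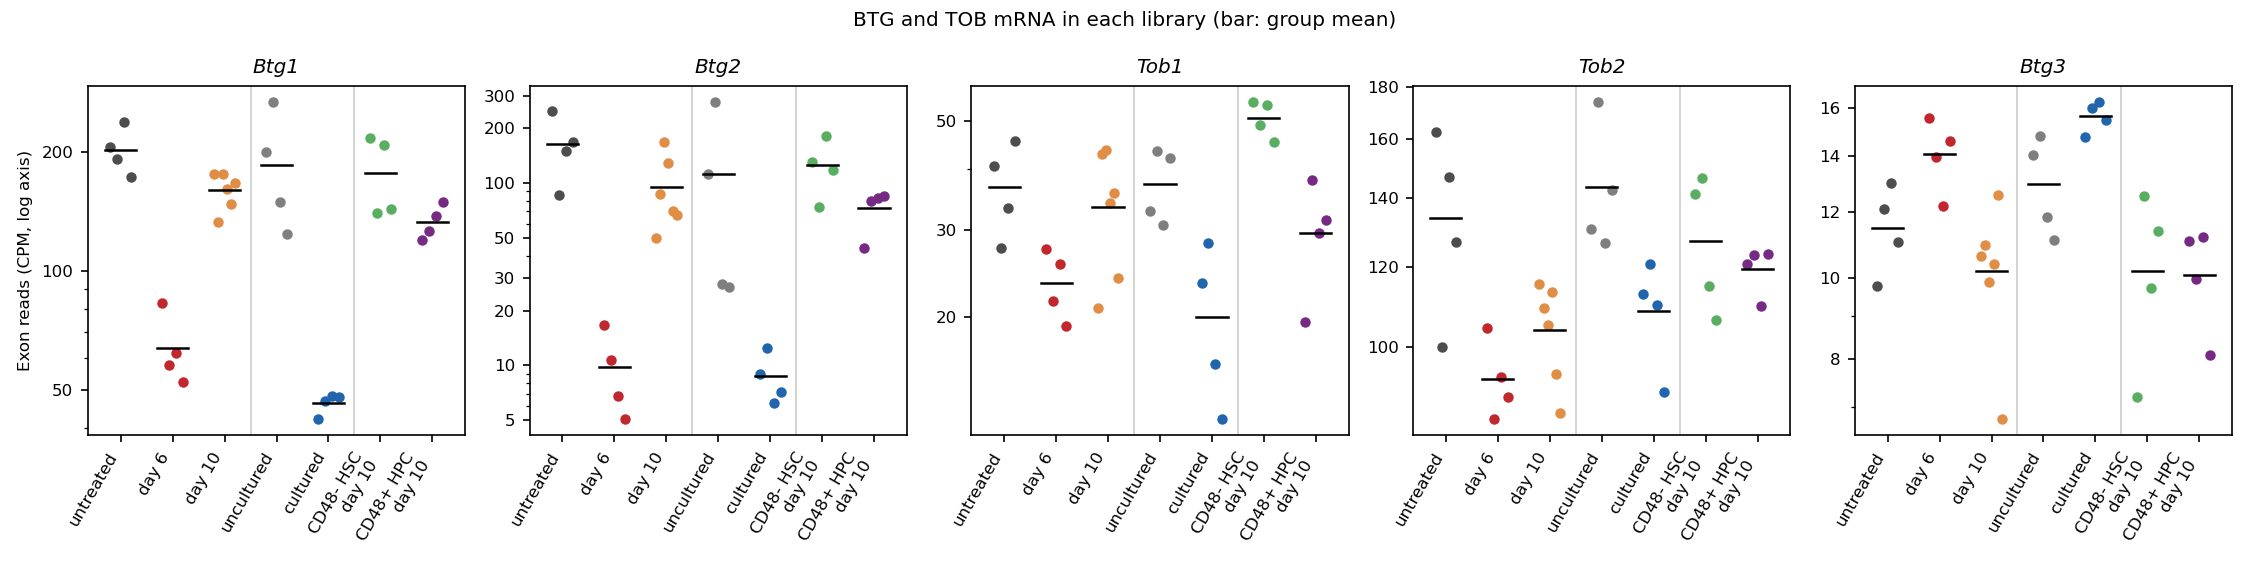
Exon reads of each gene in CPM (y axis, log scale, its range set per gene) for each of the 30 libraries (points) in the 7 groups (x axis), with bars at the group means. For Btg1 and Btg2 the day-6 and cultured libraries lie below every other group, whereas the Tob2 groups lie within a range of 85.0 to 174 CPM.

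Per kilobase of exon, which allows levels to be compared between genes, Btg2 and Btg1 led the family in untreated HSCs. Tob2 led on day 6 and in culture, but it also had the highest mean share in uncultured HSCs and CD48+ HPCs. In untreated HSCs Btg2 made up 34.0 ± 7.79% of the summed CPM per kilobase of the 5 genes, Btg1 27.4 ± 5.82%, Tob2 22.3 ± 0.898%, Tob1 10.7 ± 1.91% and Btg3 5.57 ± 1.63% (SD, n = 4). On day 6 Tob2 held 39.5 ± 2.36% and Btg2 5.19 ± 2.10%, and in culture Tob2 held 46.1 ± 1.56% and Btg2 4.76 ± 1.04%. In uncultured HSCs Tob2 held 29.1 ± 8.15%, Btg1 28.2 ± 3.56% and Btg2 22.0 ± 15.6%. In CD48+ HPCs these genes held 30.1 ± 3.83%, 26.6 ± 1.94% and 23.3 ± 4.30% in that order. The summed level itself was 151 ± 31.0 CPM per kilobase in untreated HSCs, 59.3 ± 7.96 on day 6, 111 ± 19.2 on day 10, 134 ± 58.0 in uncultured and 58.9 ± 6.74 in cultured HSCs. Tob2 thus held a larger share on day 6 at a lower level of its own. These shares include the uncertain exon value of Btg3.

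The first comparison asked what had changed 6 days after 5-FU. Of the 5 genes 4 fell, and the size of the fall differed widely, from a log2 change of -0.52 for Tob2 to -4.06 for Btg2. Of 12886 genes tested, 25.7% fell, so falling in itself was common. In edgeR's quasi-likelihood test a gene is called at an adjusted p under 0.05. Btg2, the early response member, was at 249, 85.7, 150.4 and 167 CPM in the 4 untreated libraries and at 16.6, 10.7, 6.76 and 5.07 on day 6. Every day-6 library was far below the lowest untreated one. The log2 change was -4.06 ± 0.449 (SE, adjusted p = 3.76e-06). Btg1, at 205, 191, 238 and 173 CPM in untreated HSCs, stood at 82.6, 57.9, 61.9 and 52.2 on day 6. The groups did not overlap, which 24.6% of tested genes showed in that direction, and the log2 change was -1.66 ± 0.138 (adjusted p = 4.14e-07).

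Tob1, a transducer of receptor tyrosine kinase signals that is known to restrain T cells, was at 40.5, 27.7, 33.2 and 45.5 CPM in untreated HSCs and at 27.5, 21.6, 25.6 and 19.2 on day 6. The highest day-6 library was just under the lowest untreated one. Its log2 change of -0.64 ± 0.224 (adjusted p = 0.0248) lost its call when untreated replicate 1 or 4 or day-6 replicate 2 or 4 was left out (adjusted p = 0.0582 to 0.0811). Tob2 was at 163, 100.1, 147 and 127 CPM against 104, 85.0, 93.4 and 89.4. These groups overlapped through untreated replicate 2 and day-6 replicate 1, and the log2 change was -0.52 ± 0.133 (adjusted p = 0.00388). Btg3 was at 9.77 to 13.0 CPM in untreated and 12.2 to 15.6 in day-6 libraries, a log2 difference of 0.30 ± 0.181 (adjusted p = 0.184). Lymphoid markers summed to 26.5 to 59.8 CPM in untreated and 16.2 to 19.8 in day-6 libraries. Cd3e, Cd3g and Trac were at 0 in all 8. The summed level of 7 erythroid markers was 2190 to 5627 CPM in untreated and 293 to 427 in day-6 libraries, and the part of these cells in the falls was not tested. Without the libraries high in markers of other cells (untreated replicate 3 and day-6 replicate 1) the same 4 genes passed, with log2 changes of -1.72 for Btg1 and -4.47 for Btg2.

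By day 10 the levels had moved back towards those of untreated HSCs. Against day 6, Btg1 and Btg2 rose, Btg3 fell and both TOB genes missed the threshold, where 14.7% of tested genes rose and 15.9% fell. Btg2 was at 50.1 CPM in the lowest, 78.7 in the median and 169 in the highest of the 6 day-10 libraries. All 6 lay above all day-6 libraries, and the log2 change from day 6 was 3.28 ± 0.424 (adjusted p = 0.000105). Btg1 was at 133 CPM in the lowest, 164 in the median and 176 in the highest day-10 library. It too was separate from day 6, as 10.5% of tested genes were in that direction, with a log2 change of 1.33 ± 0.129 (adjusted p = 1.44e-05). Tob1 ranged from 20.8 to 43.6 CPM with a median of 34.8 (log2 difference from day 6 of 0.51 ± 0.206, adjusted p = 0.0715). Tob1 passed with DESeq2 (adjusted p = 0.0461) and without day-10 replicate 1 (0.0246) or 6 (0.0402). Tob2 ranged from 86.2 to 115 with a median of 107 (0.16 ± 0.122, adjusted p = 0.351). The exon reads of Btg3, at a median of 10.5 CPM, were lower than on day 6 by a log2 change of -0.46 ± 0.163 (adjusted p = 0.0418). That call was lost when any 1 of 5 libraries was left out (day-6 replicates 1, 2 and 4, day-10 replicates 2 and 3) as it was without the libraries high in markers of other cells (adjusted p = 0.154), and the groups overlapped.

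Against untreated HSCs, 2 of the 5 genes were still lower on day 10, where 18.1% of tested genes fell. Tob2 had a log2 change of -0.37 ± 0.120 (adjusted p = 0.0250) and Btg1 of -0.33 ± 0.121 (adjusted p = 0.0388), and in both the libraries overlapped. Both calls were narrow: without untreated replicate 1, for example, the adjusted p was 0.103 for Tob2 and 0.0760 for Btg1. Btg2 had the larger difference, -0.78 ± 0.338, but missed the threshold (adjusted p = 0.0816), which it passed without untreated replicate 2 (0.0347) or day-10 replicate 3 (0.0223), the library highest in stromal markers. Without the 3 libraries high in markers of other cells (untreated replicate 3, day-6 replicate 1 and day-10 replicate 3) the calls changed places: Btg2 passed (-1.05, adjusted p = 0.0276), and Btg1 (0.0573) and Tob2 (0.101) did not. Erythroid markers summed to 2190 to 5627 CPM in untreated and 293 to 1447 in day-10 libraries and macrophage markers to 23.3 to 49.96 and 54.8 to 193, and their part in the differences was not tested. Tob1 (-0.13 ± 0.201, adjusted p = 0.630) and Btg3 (-0.17 ± 0.166, adjusted p = 0.451) did not pass. The 3 comparisons of this experiment share their groups and are not independent.

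One day in culture was compared with no culture. Again 4 of the 5 genes were lower and again Btg2 and Btg1 led, where 33.8% of 12386 tested genes fell. Btg2 was at 9.03, 12.5, 6.26 and 7.18 CPM in the 4 cultured libraries. The uncultured libraries were spread over a far wider range, at 113, 279, 27.9 and 27.0 CPM for replicates 1 to 4, though the lowest still lay above the highest cultured library. The log2 change was -3.65 ± 0.694 (adjusted p = 0.000468), and it was -2.63 without uncultured replicate 2. Without uncultured replicates 1, 2 and 3, which were high in stromal, megakaryocyte and erythroid markers in that order, it was -1.57. That value rests on replicate 4 alone, which had a granulocyte marker sum of 1424 CPM, and is given without a test. The size of the Btg2 difference thus depended on which uncultured libraries were used.

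Btg1 was at 199.97, 268, 149 and 124 CPM in uncultured and at 42.1, 46.7, 48.2 and 47.9 in cultured HSCs. The cultured libraries lay close together and below all others, as 31.1% of tested genes did, and the log2 change was -1.98 ± 0.198 (adjusted p = 2.00e-06; -1.37 without the 3 uncultured libraries). Tob1 was at 32.8, 43.4, 30.7 and 42.1 CPM against 23.4, 28.2, 16.1 and 12.4, a log2 change of -0.87 ± 0.223 (adjusted p = 0.00409) without overlap. Tob2 was at 131, 174, 127 and 143 CPM against 113, 121, 110.1 and 90.5, again without overlap but with a small log2 change of -0.38 ± 0.115 (adjusted p = 0.0108). Btg3 was at 11.1 to 14.8 CPM in uncultured and 14.8 to 16.3 in cultured libraries (log2 difference 0.29 ± 0.161, adjusted p = 0.124). Markers of granulocytes summed to 80.6 to 2136 CPM over the uncultured and 10.1 to 15.7 over the cultured libraries, those of lymphoid cells to 16.2 to 31.2 and 8.43 to 11.1. Uncultured replicates 3 and 4, the 2 with low Btg2, had granulocyte sums of 80.6 and 1424 CPM, and the part of other cells in the differences was not tested.

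The falls on day 6 and in culture have separate controls, so their difference could be tested in 1 fit of all 30 libraries. In exon reads none of the 5 genes passed, where 15.1% of 13468 genes did: the culture change minus the day-6 change was -0.34 ± 0.252 for Btg1 (adjusted p = 0.396), 0.39 ± 0.808 for Btg2 (0.792), -0.24 ± 0.332 for Tob1 (0.675), 0.12 ± 0.184 for Tob2 (0.708) and -0.03 ± 0.243 for Btg3 (0.963).

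At day 10 after 5-FU, CD48+ HPCs had less Tob1 and Btg2 mRNA than CD48- HSCs, where 12.5% of 12719 tested genes fell. Tob1 was at 54.6, 49.0, 53.9 and 45.4 CPM in HSCs and at 19.6, 38.0, 29.7 and 31.5 in HPCs. All HPC libraries lay below all HSC libraries, as 13.6% of tested genes did, and the log2 change was -0.77 ± 0.174 (adjusted p = 0.00858). The Tob1 call held with each library left out in turn (adjusted p = 0.00512 to 0.0292). Btg2 was at 131, 74.4, 181 and 117 CPM in HSCs and at 44.2, 79.5, 82.4 and 85.05 in HPCs. These overlapped through HSC replicate 2, and the log2 change of -0.78 ± 0.255 (adjusted p = 0.0412) lost its call when any library but HSC replicate 2 was left out (adjusted p = 0.0537 to 0.121).

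Btg1 was at 217, 140.4, 208 and 143 CPM in the CD48- HSCs and at 119.65, 126, 137 and 149 in the HPCs. The difference of -0.41 ± 0.150 missed the threshold (adjusted p = 0.0646), which it passed with DESeq2 (0.0328) and without HSC replicate 2 (0.0258) or 4 (0.0335). Tob2, at 106 to 146 CPM in HSCs and 109.7 to 123 in HPCs, differed by -0.09 ± 0.110 (adjusted p = 0.594), and Btg3 by -0.01 ± 0.218 (adjusted p = 0.982). The summed level of 8 macrophage markers was 45.9 to 257 CPM in these HSCs and 118 to 1002 in the HPCs, that of 8 granulocyte markers 40.9 to 105 and 122 to 436, and their part in the differences was not tested. Without the 3 libraries high in markers of other cells (HSC replicates 3 and 4, HPC replicate 3) Tob1 had a log2 change of -0.80 (adjusted p = 0.0492) and Btg2 of -0.55 (adjusted p = 0.220). The median of the 4 CD48- HSC libraries for Tob1, 51.4 CPM, was also above the 34.8 CPM of the day-10 HSCs of the first experiment, which have the same sort description. That difference between experiments was not tested.

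Intron reads, which come largely from RNA not yet spliced, were counted beside the exon reads and tested in fits of their own. For Btg1 and Btg2 they moved the same way as the exon reads in every comparison that passed. On day 6 Btg2 had 48, 28, 18 and 7 intron reads against 750, 501, 424 and 743 in untreated libraries. The libraries were far apart, with a log2 change of -4.32 ± 0.443 (adjusted p = 1.23e-05), and that of Btg1 was -2.05 ± 0.326 (adjusted p = 0.000341), where 12.7% of 14996 genes fell in intron reads. Tob1 (-1.10 ± 0.510, adjusted p = 0.121), Tob2 (-0.70 ± 0.351, adjusted p = 0.150) and Btg3 (-0.27 ± 0.195, adjusted p = 0.330) did not pass. From day 6 to day 10 intron reads of Btg2 rose by 3.43 ± 0.419 (adjusted p = 0.000176) and those of Btg1 by 1.10 ± 0.304 (adjusted p = 0.0215), where 9.26% of genes rose. The Btg3 difference in exon reads over these days was not seen in its intron reads, which are nearly all unique (0.12 ± 0.179, adjusted p = 0.699).

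In culture almost no intron reads of Btg1 were left. The cultured libraries had 2, 1, 2 and 4 of them and the uncultured libraries 162, 119, 77 and 64. Each cultured library was thus at a few reads, and the log2 change was -5.21 ± 0.507 (adjusted p = 1.60e-05), where 24.6% of 14291 genes fell. Btg2 had 8, 5, 8 and 5 intron reads in culture and 446, 914, 75 and 92 without it (-5.58 ± 0.887, adjusted p = 0.000440), and Tob1 3, 6, 3 and 11 against 14, 49, 14 and 20 (-1.75 ± 0.607, adjusted p = 0.0342). Tob2 (-0.50 ± 0.405, adjusted p = 0.332) and Btg3 (-0.22 ± 0.183, adjusted p = 0.347) did not pass. For Btg1 the intron fall in culture was larger than that on day 6 by 3.13 log2 units (difference -3.13 ± 0.581, adjusted p = 0.000710, where 9.19% of 16379 genes passed), while the same difference in exon reads did not pass. On day 10, intron reads of Btg1 were still lower than in untreated HSCs (-0.94 ± 0.276, adjusted p = 0.0260, where 8.31% of genes fell). None of the 5 genes passed between CD48+ HPCs and CD48- HSCs in intron reads, where 11.9% of 14795 genes did, and Tob1 had only 8 to 49 intron reads per library there.

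**Figure D2:**
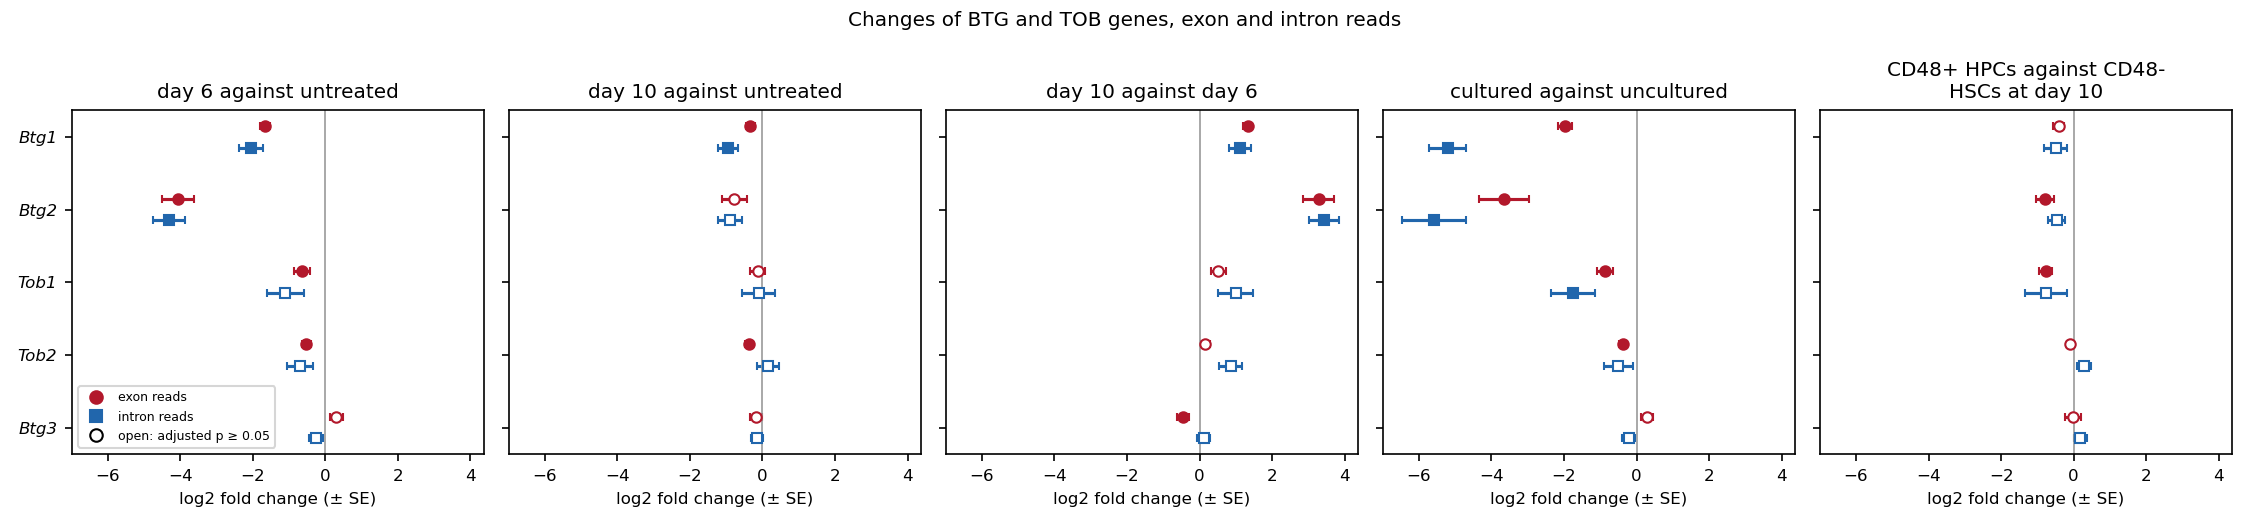
Log2 fold changes (x axis) of the 5 genes (y axis) in the 5 comparisons, from exon reads (red circles) and intron reads (blue squares), with bars for the SE and open symbols where the adjusted p was 0.05 or more. Btg1 and Btg2 lie far left of 0 on day 6 and in culture, and in culture the Btg1 intron change of -5.21 lies well to the left of its exon change of -1.98.

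The ratio of exon to intron reads of each gene was also compared, on a log2 scale with 0.5 added to each count. Its difference between day 6 and untreated HSCs was 0.84 for Btg1, 0.92 for Btg2, 1.02 for Btg3, 0.94 for Tob1 and 0.59 for Tob2, while the median over 11323 genes was 0.37. In culture it was 1.00 for Btg3 and 0.41 for Tob2, at a median of 0.41 over 11059 genes. Of 22 two-sided exact permutation tests of these differences none passed after adjustment (smallest adjusted p = 0.105, smallest unadjusted p = 0.00952). The smallest unadjusted p was that of Btg3 from day 6 to day 10. Every Btg3 ratio rests on its uncertain exon reads. With 4 libraries against 4 the smallest p that such a test allows is 0.0286. After adjustment over 22 tests a single difference at that p cannot pass by itself, nor can one from 6 libraries against 4. The lack of calls thus does not show that the ratios were unchanged. Btg1, Btg2 and Tob1 in culture had under 10 intron reads on average and were not tested. Their differences were 3.54, 2.24 and 1.22.

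Btg1 and Btg2 varied together over the libraries. The Pearson correlation of their log2 CPM was 0.935 over the 30 libraries, and 0.944, 0.941 and 0.848 inside the 5-FU, culture and CD48 experiments (14, 8 and 8 libraries). These libraries share their group differences, so the values are descriptions. Over the 30 libraries Btg1 was the gene most like Btg2 among 9711 genes with a mean of at least 10 CPM, narrowly ahead of Ppp1r15a (0.933). Inside the 3 experiments, in the same order, Ppp1r15a was nearer to Btg2 than Btg1 was, at 0.975, 0.953 and 0.881. Tob1 had a correlation of 0.759 with Btg2 and 0.558 with Tob2 over the 30 libraries, an order that turned inside the culture experiment (0.774 and 0.929). The uncertain exon value of Btg3 ran against Btg1 (-0.581) and Btg2 (-0.554).

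**Figure D3:**
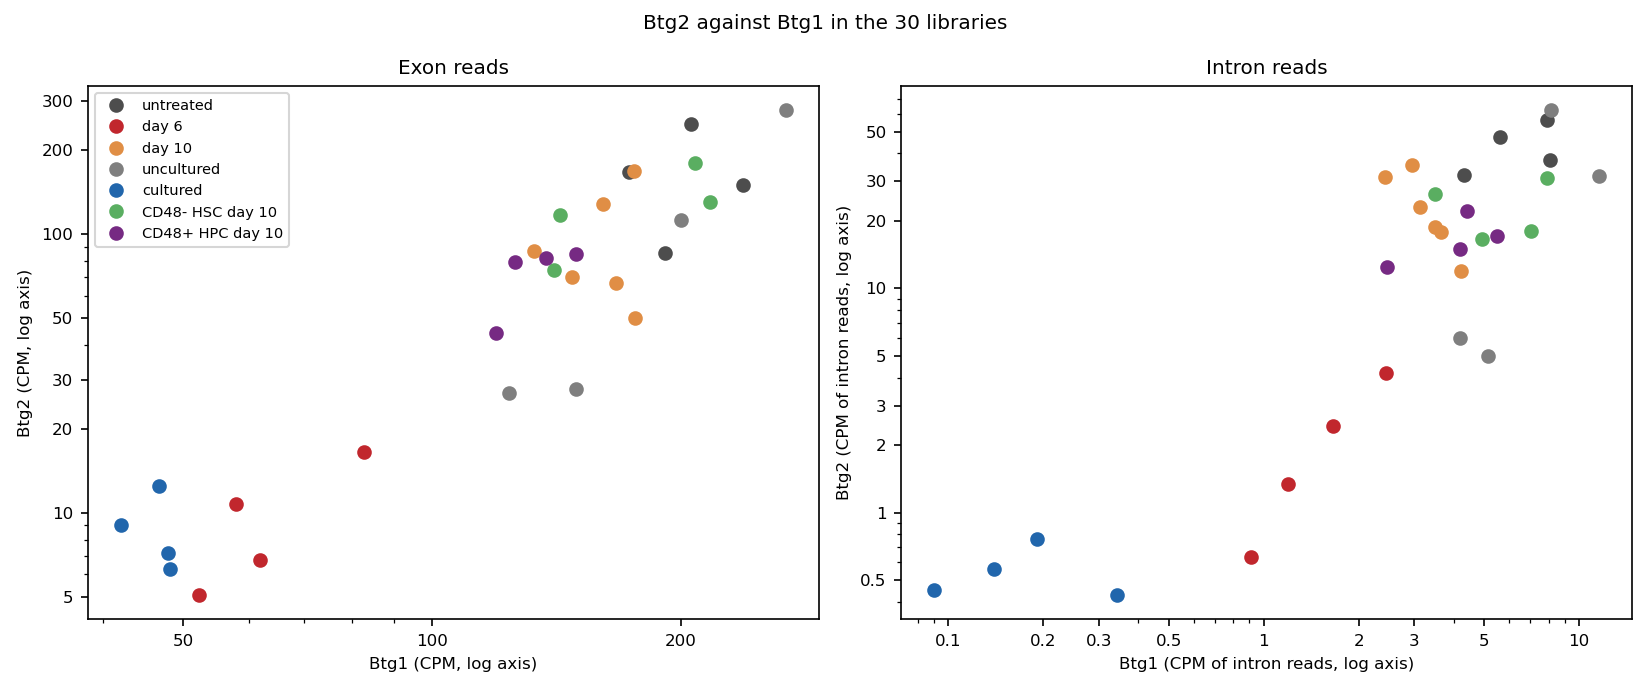
Btg2 against Btg1 in each of the 30 libraries (points coloured by group), as CPM of exon reads (left) and CPM of intron reads (right), on log axes. Day-6 and cultured libraries form the low end in both panels, and the uncultured libraries at 27.9 and 27.0 CPM of Btg2 lie below the other libraries of similar Btg1 level.

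The genes nearest to Btg1 were Ppp1r15a, a stress-induced phosphatase subunit (r = 0.958), Zfp36, which encodes the mRNA decay factor tristetraprolin (0.956), and Junb, an AP-1 subunit (0.938). Ppp1r15a was also the second nearest to Btg2 (0.933), followed by Tbc1d22a (0.923). In the uncultured group, where Btg2 spread most, Ppp1r15a was at 134, 324, 55.4 and 89.8 CPM and Zfp36 at 176, 711, 125 and 140.1 for replicates 1 to 4. Replicate 2 was the highest of the 4 for both, as it was for Btg1 and Btg2. The genes nearest to Tob1 were Tmem198b (0.885), Flcn, which encodes the tumour suppressor folliculin (0.878), and Slc26a11 (0.876). Those nearest to Tob2 were Ubald1 (0.846), Hps1 (0.812) and Wfikkn1 (0.808). For Btg3, with its uncertain exon reads, they were Lrp12 (0.797), Nt5c3b (0.788) and Rcan3 (0.782). Inside the CD48 experiment the values in the same order were 0.802, 0.712 and 0.759 for Btg1 and 0.945, 0.840 and 0.925 for Tob1. They were 0.6445, 0.510 and 0.249 for Tob2 and 0.822, 0.614 and 0.541 for Btg3.

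Genes of the machinery that BTG and TOB proteins act through were read from lists. Of 11 CCR4-NOT subunits, 5 rose and 1 fell on day 6, 5 rose and 3 fell in culture, 4 rose and none fell on day 10 against untreated HSCs, and 2 rose and none fell in CD48+ HPCs. Over all tested genes, 25.7% rose on day 6, 33.8% in culture, 19.9% on day 10 and 14% in CD48+ HPCs. The shares that fell were 25.7, 33.8, 18.1 and 12.5% in the same order. The largest rise was that of Cnot9, a subunit that anchors RNA-binding proteins to the complex. Its libraries were at 68.3, 71.6, 79.7 and 50.6 CPM in untreated and 141, 157, 140.2 and 149 in day-6 HSCs, with a log2 change of 1.12 (adjusted p = 3.71e-06). It was also higher in culture (1.29, adjusted p = 7.65e-09) and in CD48+ HPCs (0.58, adjusted p = 0.00170). Cnot6, a catalytic subunit, rose by 0.71 on day 6 and 0.62 in culture, and the scaffold Cnot1 by 0.52 and 0.50. The subunits that fell in culture were Cnot2 (-0.33), Cnot4 (-0.36) and Cnot6l (-0.40). For the deadenylases that BTG and TOB proteins bind, picked here for that role after their values were seen, the differences were small: Cnot7 fell by 0.25 on day 6 (adjusted p = 0.0203) and its difference in culture was -0.12 (adjusted p = 0.377), while Cnot8 did not pass in any of the 5 comparisons.

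The 7 other deadenylation and poly(A)-binding genes gave 4 rises and 1 fall on day 6 and 4 rises and 2 falls in culture. For this list and the next, 25.7% of all tested genes rose and 25.7% fell on day 6. In culture 33.8% rose and 33.8% fell. Noct, a circadian deadenylase relative, was at 7.72 ± 1.15 CPM in untreated and 14.8 ± 2.10 in day-6 HSCs (0.94, adjusted p = 0.000484), and Pde12, a mitochondrial deadenylase, rose by 0.86 on day 6 and 1.10 in culture. Pan3, the adaptor of the PAN2-PAN3 deadenylase, fell by 0.49 on day 6 (adjusted p = 0.000130) and by 0.97 in culture (adjusted p = 1.59e-08). Of 12 other proteins that bring CCR4-NOT to mRNAs, 1 rose and 5 fell on day 6, and in culture 8 of 11 tested fell and none rose. The 1 that rose on day 6 was Samd4 (1.78). Zfp36 fell from 245 ± 95.5 CPM in untreated to 41.1 ± 10.0 in day-6 HSCs (-2.58, adjusted p = 2.51e-06) and by 4.20 in culture (adjusted p = 2.03e-05). Tnrc6b and Tnrc6c, which link microRNA complexes to CCR4-NOT, fell by 0.49 and 0.58 on day 6 and by 0.84 and 0.72 in culture. From day 6 to day 10 none of the 12 fell and 5 rose, where 14.7% of tested genes rose, with Zfp36 at 2.16 (adjusted p = 5.55e-05).

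**Figure D4:**
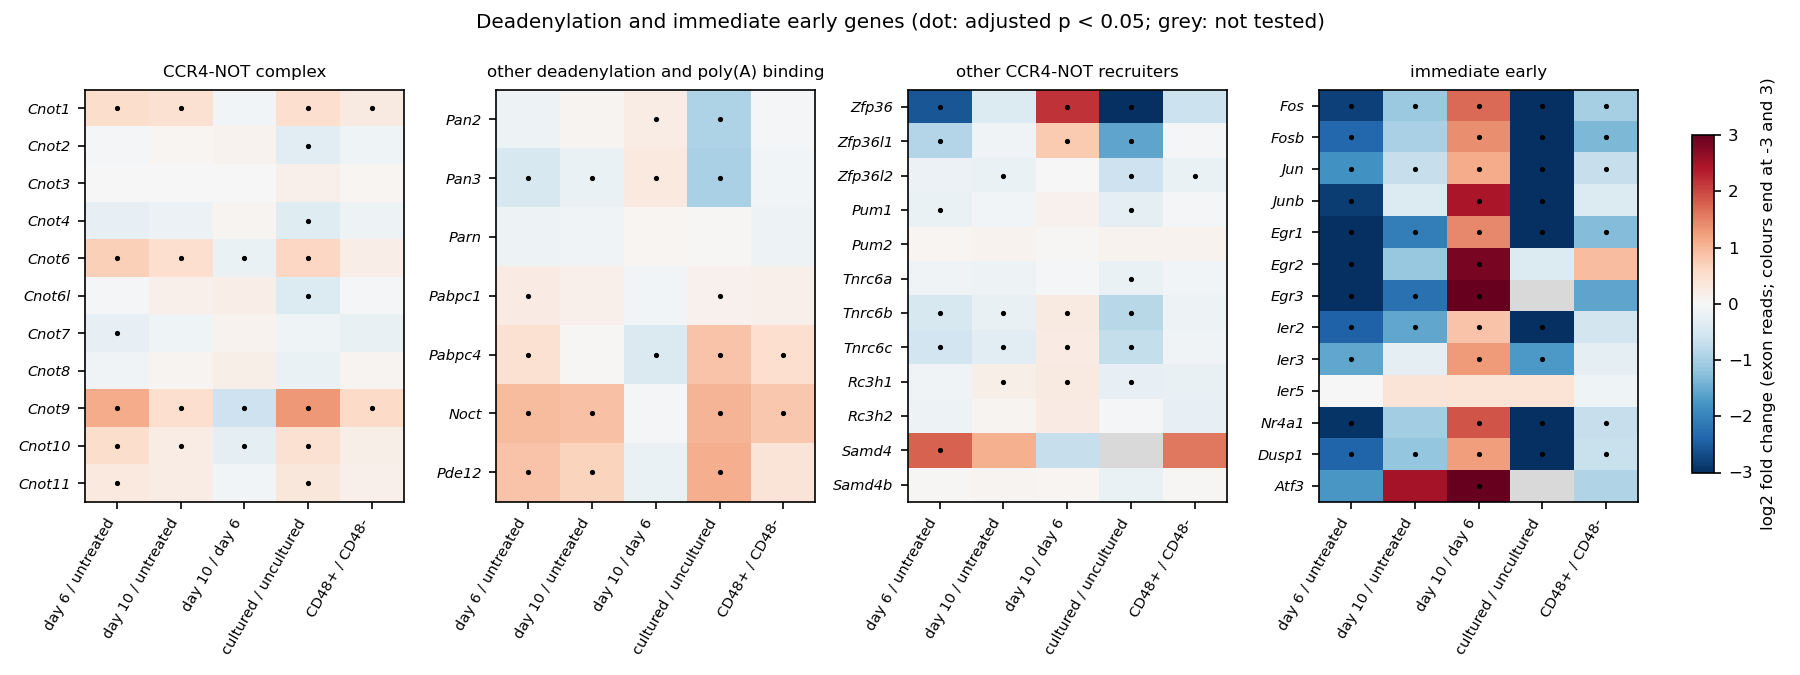
Log2 fold changes of exon reads (colour, which ends at -3 and 3) for genes of 4 lists (rows) in the 5 comparisons (columns), with a dot where the adjusted p was under 0.05 and grey where a gene was not tested. Zfp36 and most immediate early genes are blue on day 6 and in culture and red from day 6 to day 10, and the CCR4-NOT panel holds paler colours in both directions.

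Of 7 other partners and targets, 6 could be tested on day 6, when 2 rose and none fell. In culture 5 could be tested, of which 2 rose and 3 fell. Shares over all tested genes were 25.7% rising and 25.7% falling on day 6, and 33.8% each way in culture. Prmt1, the arginine methyltransferase that BTG1 and BTG2 bind, rose in all 4 comparisons with control or CD48- cells. It was at 118, 122, 115 and 119 CPM in untreated and 269, 318, 316 and 309 in day-6 HSCs (1.36, adjusted p = 5.29e-08), and its log2 change was 1.77 in culture (adjusted p = 2.07e-09), 0.64 on day 10 and 0.83 in CD48+ HPCs. Ccnd1, the cyclin D1 gene that BTG2 is known to repress, was at 69.4 ± 16.4 CPM in untreated and 231 ± 9.95 in day-6 HSCs (1.74, adjusted p = 1.84e-05). Its rise in culture was small (0.36, adjusted p = 0.0312), and the culture change minus the day-6 change was -1.40 (adjusted p = 0.00620). Of 6 upstream factors, 2 rose and 3 fell on day 6 and likewise in culture, to be read beside the same shares over all genes. Foxo3, Foxo4 and Foxo1, genes of the factor family known to activate BTG1, were the ones that fell, with log2 changes of -0.79, -0.46 and -0.44 on day 6 and -1.24, -1.37 and -1.56 in culture. Trp53 rose by 0.39 on day 6 and by 0.63 in culture (adjusted p = 0.00846 and 1.85e-06), and Srf by 0.34 and 0.78. Creb1, which encodes the factor that binds cAMP response elements, did not pass in any of the 5 comparisons.

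Btg2 is known as an immediate early gene. Of 13 other genes of that class tested, 11 fell and none rose on day 6, with a median log2 change of -2.42 against -0.04 over all genes, and 12 rose and none fell from day 6 to day 10 (median 1.44 against -0.02). In culture 9 of 11 fell and none rose (median -3.40 against -0.01), and in CD48+ HPCs 6 of 13 fell and none rose (median -0.68 against -0.01). On day 10, 6 of 13 were still lower than in untreated HSCs and none was higher. Of all tested genes, 25.7% fell on day 6, 33.8% in culture, 12.5% in CD48+ HPCs and 18.1% on day 10 against untreated HSCs. From day 6 to day 10, 14.7% rose. Egr1 fell by 3.51 on day 6 (adjusted p = 2.25e-06) and by 3.40 in culture (adjusted p = 0.00147). Fos was at 656, 1764, 420 and 139 CPM in uncultured and at 0.114, 0.873, 3.13 and 0.829 in cultured HSCs, and its fall in culture was larger than that on day 6 (difference -6.52, adjusted p = 8.39e-06). The Btg2 changes of -4.06 and -3.65 lay below the medians of these genes on day 6 and in culture, and those of Btg1 at -1.66 and -1.98 above them. Without uncultured replicate 2 the Btg2 change in culture was -2.63, and without the 3 high-marker libraries -1.57.

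Genes of proliferation were read from a list of 8. The share of all tested genes that rose was 25.7% on day 6, 33.8% in culture, 14% in CD48+ HPCs and 19.9% on day 10. All 8 rose on day 6 (median log2 change 2.27), in culture (2.15) and in CD48+ HPCs (1.26), and 7 of 8 rose on day 10 against untreated HSCs (1.74). Mki67, a marker of cycling cells, was at 171, 269, 139 and 90.2 CPM in untreated and at 590, 641, 622 and 583 in day-6 libraries (1.87, adjusted p = 6.91e-06). From day 6 to day 10, when Btg1 and Btg2 rose again, 3 of the 8 fell and 5 did not pass, where 15.9% of tested genes fell. Mki67 was at 398 CPM in the lowest and 508 in the highest day-10 library, so that its level stayed above all untreated libraries. Btg1 overlapped with them only slightly. Its day-10 libraries had a median of 164 CPM and a highest value of 176, and the lowest untreated library was at 173. As given above, Btg1 was called lower on day 10 than in untreated HSCs, narrowly in exon reads and also in intron reads.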

How the data were processed

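RNA-seq was measured in 30 libraries of 7 groups, taken from the sample labels. The deposited values are whole-number read counts per gene entry, per the file headers as total and unique exon, intron and junction reads with lengths and positions. The genome was mm10, per the submitters' processing notes. The aligner, the counter and the use of strand are not stated in the sources available here, so overlapping antisense genes cannot be told apart. Entries (48737 per file) were summed to 46113 gene identifiers. Genes were filtered by edgeR's filterByExpr, scaled by TMM and tested with edgeR 4.0.16 (quasi-likelihood, R 4.3.3), 1 fit per experiment, with Benjamini-Hochberg adjustment over all genes tested and a threshold of 0.05. The culture change minus the day-6 change came from 1 fit of all 30 libraries. Intron reads were fitted alike. Exon-to-intron ratios (0.5 added, at least 10 mean intron reads in each group) were tested by exact two-sided permutation. DESeq2 1.42.0, RLE scaling, no filter, unique reads, a replicate block and other fits were alternatives; leaving out libraries with high markers of other cells was an alternative chosen after seeing the data. The scripts were tested on simulated data.

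Depth was 5.21 to 12.2 M exon reads per library, and the low intron counts of Btg1, Btg2 and Tob1 in cultured cells limit their precision. The 5 genes were named in every comparison. Of each list up to 3 genes with the smallest p that passed were named, and per member the 3 genes with the highest correlation among those with a mean of at least 10 CPM (prior count 2), leaving out predicted genes and pseudogenes. Cnot2, Cnot4, Cnot6l, Cnot7, Cnot8, Samd4, Creb1, Srf and some values of other list genes were added after their values were seen. Members and lists were chosen with earlier results of these data known. Promoters came from the RefSeq table and transcripts from the reference annotation (Python 3.11.15, Biopython 1.88).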

Additional observations from a re-analysis of the deposited data

Results flagged for a closer look

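Btg2 in CD48+ HPCs had 1 library far from the others: replicate 1 was at 44.2 CPM and the other 3 at 79.5 to 85.05 CPM, a gap of 0.865 of the whole range. It was the only one of 35 pairs of gene and group with such a library, and chance alone flags about 1 in 20 groups.

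The Btg1 intron change in culture differed from that on day 6. The difference was -3.13 on the log2 scale (SE 0.581, adjusted p = 0.000710 in edgeR's quasi-likelihood test), with 4 of 4 cultured libraries at 1 to 4 intron reads and the day-6 libraries at 10 to 28. The controls of the 2 changes are separate groups.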

How the results depend on the processing

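Btg1 and Btg2 kept their direction in every alternative run for day 6 against untreated (18 settings, -2.05 to -1.58 and -4.47 to -3.79). They also did for day 10 against day 6 (20 settings) and culture (18 settings), as did Tob1 in culture. Each of these calls held too, leaving aside the culture fit with 1 uncultured library, which is given without a test. Unique exon reads and unsummed entries repeat the same counts for these genes, so those settings were hardly a separate check. RLE scaling changed no call or direction of the 5 genes, and DESeq2 added 2 calls (Tob1 for day 10 against day 6, Btg1 for CD48). Without the libraries high in other markers the culture fit has 1 uncultured library, assumed to vary like the other groups. Calls near the threshold did not all hold. The number of the 5 genes that passed on day 10 against untreated was 2, and 1 with no filter, intron reads, all 30 libraries in 1 fit or without the libraries high in other markers, and 0 to 3 with single libraries left out. Without the high-marker libraries the 1 gene was Btg2 and not Btg1 or Tob2. Between CD48+ and CD48- cells it was 2, and 0 with intron reads, 1 with all 30 libraries in 1 fit or without the high-marker libraries, and 1 to 3 with single libraries left out, while the count over all genes was 2139 (without HPC replicate 1) to 3496, and 2001 without the high-marker libraries. Intron reads gave 4063, 2815, 2542 and 1755 called genes for day 6, day 10 against untreated, day 10 against day 6 and CD48, 2 of the 5 genes on day 6, and 1 of the 5 for the culture change minus the day-6 change. Unique exon reads left Btg3 with too few reads to be fitted.

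Single values changed sign in 46 cases, 28 in tests and 18 in exon-to-intron ratios, and the cause was not tested. With intron reads, Btg3 was at -0.27 on day 6, 0.12 for day 10 against day 6, -0.22 in culture, 0.18 for CD48 and 0.087 for culture minus day 6, where Btg2 was at -1.23. Tob2 was at 0.15 on day 10 and 0.28 for CD48, Cd48 at -0.92 for day 10 against day 6 and 0.68 in culture, Pcna at -0.19 in culture and Zfp36l2 at 0.15 for CD48. With no filter the CD48 difference of Btg3 was 0.016. With single libraries left out it was -0.14 to 0.11, culture minus day 6 was -0.089 to 0.036 for Btg3 and -0.0053 to 0.24 for Tob2, and Cd48 for day 10 against day 6 was -0.12 to 0.50. The exon-to-intron ratio of Btg3 from unique exon reads was -0.48 on day 6 and -0.83 on day 10, but with 0 to 4 unique exon reads per library there these values are set by the 0.5 added and cannot be read as a change. With single libraries left out the ratio was -0.37 to 0.067 for Tob2 on day 10, -0.035 to 0.20 for Btg1 from day 6 to day 10, and for CD48 -0.20 to 0.092 for Btg2, -0.059 to 0.37 for Btg3, -0.14 to 0.54 for Tob1 and -0.24 to 0.051 for Tob2.

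Same-numbered libraries had correlations of deviations from their group means of -0.18 to 0.11. The highest correlation of each with a library of another number was 0.016 to 0.20. Whether replicate numbers pair the samples was not tested. With the replicate number as a block, 1 of the 5 genes passed on day 10 against untreated (Tob2 lost its call, adjusted p = 0.0878), Btg3 lost its call for day 10 against day 6 (0.0944), and the CD48 difference of Btg3 was 0.0074.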
